A study of Mus musculus with 6 samples.

Results

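Of the 23073 genes with a value in every library, 10 were followed across 6 RNA-Seq libraries of embryonic mouse diaphragm. They were chosen by name, as genes whose products sit on or in the cells of the Schwann lineage: the lipid-binding protein gene Fabp7, the connexin gene Gjc3, the receptor genes Gpr17, Ednrb and Gfra3, the adhesion genes Cdh19, L1cam and Cadm4, and the genes of the intracellular proteins Gap43 and S100b. Gap43, S100b and Fabp7 are intracellular proteins, so the list holds markers of the lineage and not of its surface alone.

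Schwann cells, the glia of peripheral nerves, arise from the neural crest. Crest cells that have settled on growing axons become Schwann cell precursors, which travel along the nerve into its target tissue and depend on neuregulin from axons, received by a heterodimer of erbB2 and erbB3. Embryos without a working erbB3 receptor lack these cells along the nerves of their limbs and diaphragm, and their motor nerves degenerate after first reaching their targets. Outside the lineage, Ednrb is also known from melanocytes and blood vessels, Gap43 and L1cam from growing axons, Gfra3 from sensory and sympathetic neurons, and S100b from cartilage.

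The study compared RNA of diaphragm muscle at E14.75, a stage of embryonic development, between 3 groups of 2 libraries each. It reported maximal denervation at this stage, when many axon terminals of the mutant diaphragm were already swollen or fragmented. The erbB3 wild-type libraries (replicates 5 and 6) and the erbB3 mutant libraries (labelled erbB3 KO, replicates 1 and 2) held total RNA of whole muscle. The Wnt1-Ribotag libraries (replicates 1 and 2) came from embryos of the genotype Wnt1-Cre, Ribotag, erbB3 WT. In them Cre recombinase, active in the neural crest and its descendants, had switched on a hemagglutinin tag on a ribosomal protein, and polysomes were pulled down with an antibody to the tag. Each of these libraries pooled the diaphragms of 1 litter and began from far less RNA than the whole-muscle libraries. Wnt1-Cre also marks other crest descendants, among them sensory and autonomic neurons and melanocytes. The erbB3 mutation was carried by the whole embryo and not by Schwann cells alone.

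By the floor values of the files, the libraries held 100178863 to 230216660 mapped reads, and 17205 to 20349 genes were not flagged as at the floor. Erbb3 itself was at 16.5 and 15.8 RPKM (reads per kilobase of gene, scaled to the depth of the library) in wild-type 5 and 6, 21.5 and 11.9 in mutant 1 and 2, and 19.5 and 25.3 in Wnt1-Ribotag 1 and 2. The Erbb3 transcript did not separate mutant from wild-type (log2 difference -0.01, adjusted p = 0.992 in limma), so the genotypes are those of the labels. Sox10, the transcription factor that defines the Schwann lineage, averaged 2.52 RPKM in wild-type, 0.0132 in mutant and 23.9 in Wnt1-Ribotag libraries. The summed RPKM of 10 skeletal muscle genes was 2588 and 2194 in wild-type 5 and 6, 3923 and 2345 in mutant 1 and 2, and 2533 and 2324 in Wnt1-Ribotag 1 and 2. Of these genes 6 had positive and 4 negative log2 differences in Wnt1-Ribotag vs. wild-type, and 0 passed an adjusted p under 0.05 in limma. At an unadjusted p under 0.05 Tnnt3 was higher and Myod1 and Myog were lower (11.3% of all genes were lower by that measure). In mutant vs. wild-type 8 of the 10 muscle genes had positive differences, 0 passed, and 3 were higher at an unadjusted p under 0.05, against 2.38% of all genes. The sum of 8 liver genes was 500.2 and 151.9 in wild-type 5 and 6, 17.8 and 10.2 in the mutants, and 269.9 and 195.6 in Wnt1-Ribotag 1 and 2, so this sum too was lowest in the mutants. The part of liver RNA, or of erbB3 loss outside Schwann cells, in the results on the 10 genes was not tested.

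Promoter sequence is given for Fabp7 and Gjc3, which passed the test as lower in mutant muscle, and for Cadm4, which had the largest share of its wild-type mean left there. Fabp7 (ENSMUSG00000019874) spans bases 57784881 to 57788450 of chromosome 10, Gjc3 (ENSMUSG00000056966) bases 137953461 to 137963098 of chromosome 5 and Cadm4 (ENSMUSG00000054793) bases 24482023 to 24504539 of chromosome 7. The bases shown are from RefSeq windows of GRCm38.p6, end just before the start of each gene in the GENCODE annotation of GRCm38, and read 5′ to 3′ on the strand of the gene. Capitals mark a match to the short Sox motifs ACAAAG or ACAATG on either strand.
Fabp7, chr10:57784673-57784880, plus strand: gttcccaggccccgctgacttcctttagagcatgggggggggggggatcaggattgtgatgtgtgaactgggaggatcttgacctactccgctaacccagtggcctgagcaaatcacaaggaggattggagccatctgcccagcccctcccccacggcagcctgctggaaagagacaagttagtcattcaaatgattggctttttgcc
Gjc3, chr5:137963099-137963348, minus strand: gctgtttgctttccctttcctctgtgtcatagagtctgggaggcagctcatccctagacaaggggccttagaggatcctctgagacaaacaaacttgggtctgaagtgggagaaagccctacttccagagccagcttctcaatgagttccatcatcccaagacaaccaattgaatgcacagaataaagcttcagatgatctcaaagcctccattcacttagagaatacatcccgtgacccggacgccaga
Cadm4, chr7:24481773-24482022, plus strand: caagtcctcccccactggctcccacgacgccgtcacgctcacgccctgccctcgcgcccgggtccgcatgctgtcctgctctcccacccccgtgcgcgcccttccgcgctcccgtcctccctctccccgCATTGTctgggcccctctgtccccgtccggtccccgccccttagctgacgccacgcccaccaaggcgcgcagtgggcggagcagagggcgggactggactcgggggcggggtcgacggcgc
RefSeq windows of 250 bases before the start were at hand for 6 of the 10 genes, and 1 of these, that of Cadm4, held a match, CATTGT, beginning 121 bases before the start. Of all 32851 such windows, 25.2% held at least 1 match. The Cadm4 window was 75.2% G or C and that of Gjc3 48.8%, against a median of 52.4% over all windows. The Fabp7 window runs 42 bases past the stretch shown and was 54.8% G or C as a whole (56.2% in the stretch shown). A match describes the letters of the window only, and Sox10 binding was not measured here.

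None of the 10 genes was flagged as at the floor in any of the 6 libraries. In wild-type muscle Gap43, Cadm4 and Ednrb were the most abundant, with means of 15.6, 11.3 and 9.33 RPKM, and Fabp7 followed at 3.46. The ranges of Gap43 and Cadm4 overlapped, as did those of Gap43 and Ednrb, whereas Cadm4 was above Ednrb, and Ednrb above Fabp7, in both libraries. The other 6 genes had means between 0.683 (Cdh19) and 1.73 RPKM (Gpr17), and the range of L1cam, 0.574 to 2.45, overlapped that of each of the other 5. In mutant muscle Gap43, Cadm4 and Ednrb again led, at 7.06, 6.83 and 4.72 RPKM, and Gjc3, Cdh19 and Gpr17 were last, at 0.00816, 0.00954 and 0.0161 RPKM, with Cdh19 overlapping both of its neighbours. In Wnt1-Ribotag libraries Gap43 (147.4 RPKM) led and Fabp7 (84.8) was next by mean. The range of Fabp7 overlapped those of Gap43, Ednrb, Cadm4 and Gfra3, and in Wnt1-Ribotag 1 it was below Ednrb (35.2 against 36.4 RPKM). Cdh19 was the lowest at 2.35, as it was in wild-type muscle.

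**Figure D1:**
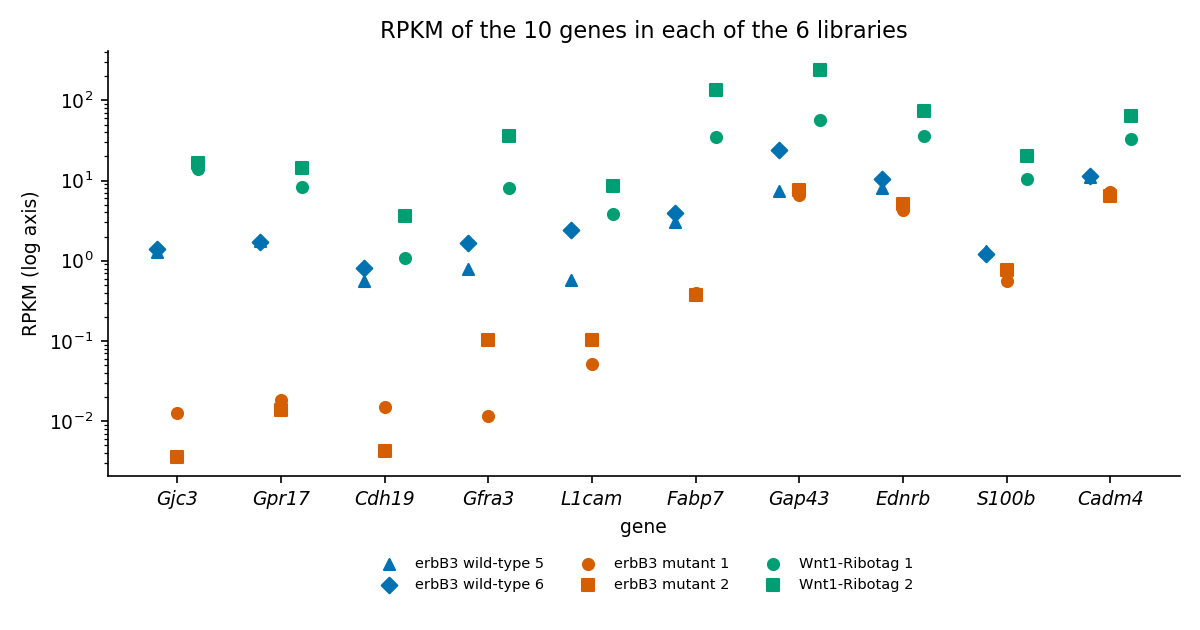
RPKM of each gene (log axis) in the 6 libraries, 1 point a library, genes ordered by the share left in mutant muscle. All 10 genes were highest in the Wnt1-Ribotag libraries, and all but Gap43 were lower in both mutant libraries than in both wild-type libraries.

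The first comparison, erbB3 mutant vs. wild-type muscle, asked which transcripts were reduced where Schwann cells are missing. Gjc3, Gpr17 and Fabp7 fell, to 0.612%, 0.929% and 11.03% of their wild-type mean. Cdh19, Gfra3 and L1cam were at 1.40%, 4.57% and 5.14% of the wild-type mean and Gap43, Ednrb, S100b and Cadm4 at 45.3%, 50.6%, 52.5% and 60.6%, without passing the test or, for Cdh19, without being tested. Differences were fitted in limma on log2(RPKM + 0.5), a scale that understates the change of low genes, over 14052 genes with a mean of at least 0.5 RPKM in the 4 libraries. Of the 9 genes tested, 3 were lower at an adjusted p under 0.05, against 0.121% of all genes tested. On the same scale 5 of the 10 genes differed at least 2-fold in all 4 pairs of libraries, against 0.399% of all genes tested. With a pseudocount of 0.1 there were 6 (against 0.598%), the added gene being L1cam, whose RPKM differed at least 5.51-fold in every pair. There were 3, Fabp7, Gjc3 and Gpr17, with a pseudocount of 1 (against 0.249%) and with quantile normalization (against 0.285%). Groups that did not overlap were found for 9 of the 10 genes, against 37.4%. The median log2 difference was -1.59 over the 9 genes and -0.10 over all genes tested. Over 8 neuron markers tested it was -1.46, with 8 negative values and 6 lower at an unadjusted p under 0.05 (9.66% of all genes were lower by that measure), and over 17 genes of the Schwann lineage list it was -0.51. Of the 9 genes, 5 had a mutant mean under 0.5 RPKM and so passed the filter through their wild-type level alone, namely Fabp7, Gjc3, Gpr17, L1cam and Gfra3. All 3 called genes are among them, so the counts and the median describe these genes and support nothing further. Whole muscle cannot tell apart fewer cells of a type from less RNA per cell. Nor can this comparison tell apart missing Schwann cells from axons degenerating at the same stage. With 2 libraries against 2, an exact permutation test of a single gene could not give a p below 0.33, so the calls rest on the spread that limma shares across genes.

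Fabp7 encodes the brain-type fatty acid binding protein, a cytoplasmic carrier of long-chain fatty acids and an early marker of glia committed from the crest. It was at 3.0 and 3.93 RPKM in wild-type 5 and 6 and at 0.393 and 0.371 in mutant 1 and 2. Both mutant libraries were below both wild-type libraries and nearly equal to each other. The log2 difference was -2.16 ± 0.18 (SE, n = 2 per group, adjusted p = 0.0064 in limma), and 9.45% to 13.1% of the transcript was left over the 4 pairs.

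Gjc3 encodes connexin 29, a gap junction family protein of myelinating and premyelinating glia. It was at 1.27 and 1.40 RPKM in wild-type and at 0.0127 and 0.00361 in mutant muscle, the lowest mutant mean of the list. From the annotated exon length these correspond to at most about 7.2 and 3.6 reads, so nearly no Gjc3 RNA was read in either mutant. Its log2 difference was -1.85 ± 0.17 (SE, n = 2 per group, adjusted p = 0.00821 in limma).

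Gpr17 encodes a G protein-coupled receptor related to the purine and cysteinyl leukotriene receptors and is best known from oligodendrocyte precursors. Its RPKM was 1.76 and 1.70 in wild-type and 0.0183 and 0.0139 in mutant muscle. The replicates of each group were close and the groups lay far apart on the RPKM scale (107.6-fold from the means, 92.9-fold to 127-fold over the pairs). The log2 difference was -2.11 ± 0.16 (SE, n = 2 per group, adjusted p = 0.0064 in limma). Exons of Gpr17 overlap exons of Lims2 on the other strand of chromosome 18, and how reads were assigned by strand is not given in the sources used here. Lims2 was at 0.928 and 0.718 RPKM in wild-type, 0.292 and 0.325 in mutant and 8.22 and 10.6 in Wnt1-Ribotag libraries, so reads of the 2 genes cannot be told apart where they overlap.

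The calls of these 3 genes depended on settings. None of them passed without the filter on low values (adjusted p = 0.224 for Fabp7 and 0.0812 for Gjc3 and Gpr17 in limma), with all 6 libraries in 1 fit (0.753 for Fabp7 and 0.224 for Gjc3 and Gpr17) or without mutant 2 (0.0533 for Fabp7 and Gpr17, 0.0619 for Gjc3). Without mutant 1, Gjc3 also missed the threshold (adjusted p = 0.0506 in limma). Where a fit leaves 1 library in a group, here and in the results without wild-type 5 or 6, that library is assumed to vary like the other group, whose pair alone gives the spread.

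Among the adhesion genes, Cdh19, a classical cadherin used as a marker of Schwann cell precursors, was at 0.554 and 0.811 RPKM in wild-type and at 0.0148 and 0.00425 in mutant muscle. The groups did not overlap and both mutant values were close to the value of a few reads, at most about 8.3 and 4.2. Its mean over the 4 libraries was under the filter, so it has no test here, although it differed at least 2-fold in all 4 pairs.

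L1cam, an immunoglobulin superfamily protein of axons and of premyelinating Schwann cells, was at 0.574 and 2.45 RPKM in wild-type and at 0.0515 and 0.104 in mutant muscle. The groups did not overlap, but the wild-type libraries differed 4.27-fold from each other. Mutant minus wild-type, the log2 difference was -1.62 ± 0.40 (SE, n = 2 per group, adjusted p = 0.215 in limma), and without wild-type 5, the lower of that pair, it was -2.35 (adjusted p = 0.00135, with the spread taken from the mutants alone). Without wild-type 6 the mean of L1cam was under the filter and no test was made. Exons of L1cam overlap those of Arhgap4 on the same strand. Arhgap4 lay between 2.59 and 3.66 RPKM in all 6 libraries.

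Cadm4, an adhesion protein on the Schwann cell side of the contact with axons, was at 11.1 and 11.5 RPKM in wild-type and at 7.23 and 6.44 in mutant muscle. It was lower in both mutants, with little spread within either group, and more of it was left than of any other gene of the list by the ratio of means. On the log2 scale the difference was -0.69 ± 0.14 (SE, n = 2 per group, adjusted p = 0.134 in limma).

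Ednrb, the endothelin receptor B gene, was at 8.13 and 10.5 RPKM in wild-type and at 4.29 and 5.16 in mutant muscle. Both mutants were below both wild-types, with 40.8% to 63.4% of a wild-type library's level over the pairs. Its log2 difference was -0.91 ± 0.17 (SE, n = 2 per group, adjusted p = 0.111 in limma).

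Gfra3 encodes the co-receptor through which the ligand artemin reaches the receptor tyrosine kinase Ret. It was at 0.787 and 1.68 RPKM in wild-type and at 0.0115 and 0.101 in mutant muscle. The groups did not overlap, and the spread was wide in both, with mutant 1 at no more than about 3.0 reads and mutant 2 at about 46.6. Its difference on the log2 scale was -1.59 ± 0.26 (SE, n = 2 per group, adjusted p = 0.0829 in limma), and without wild-type 5 it was -1.97 (adjusted p = 0.00242, again with the spread of the mutants alone). Without wild-type 6 Gfra3 too was under the filter.

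Gap43, a phosphoprotein on the inner face of the growth cone membrane that Schwann cell precursors also make, was the one gene whose groups overlapped. It was at 7.42 and 23.8 RPKM in wild-type and at 6.55 and 7.58 in mutant muscle, and wild-type 5 lay between the 2 mutants. The log2 difference was -0.88 ± 0.43 (SE, n = 2 per group, adjusted p = 0.439 in limma). Without wild-type 5 it was -1.68 (adjusted p = 0.00763) and without wild-type 6 it was -0.07 (adjusted p = 0.967), both with the spread of the mutants alone, so the difference rests on wild-type 6.

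S100b, a calcium-binding protein that serves as a general marker of Schwann cells once they leave the precursor stage, was at 1.33 and 1.21 RPKM in wild-type and at 0.564 and 0.772 in mutant muscle. The mutants were lower without overlap. The log2 difference was -0.61 ± 0.17 (SE, n = 2 per group, adjusted p = 0.296 in limma).

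The 10 genes lay in 2 ranges of transcript left in mutant muscle, a division made after the values were seen and given with no test. Over the 4 pairs of libraries, Gjc3, Gpr17, Cdh19, Gfra3, L1cam and Fabp7 had between 0.258% and 18.1% of a wild-type library's level. Gap43, Ednrb, S100b and Cadm4 had between 27.6% and 102.2%. Of the genes with more left, Gap43, Ednrb and Cadm4 were the 3 most abundant of the list in wild-type, whereas S100b, at 1.27 RPKM, was as low there as Gjc3, at 1.33 RPKM.

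**Figure D2:**
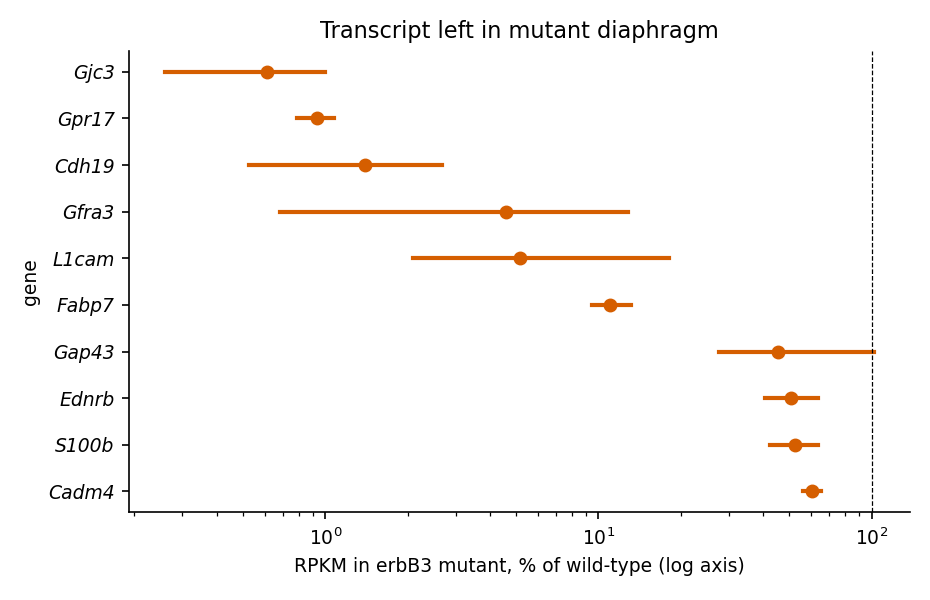
Mean RPKM in erbB3 mutant muscle as a percent of the wild-type mean (points, log axis) with the lowest and highest of the 4 pairs of libraries (lines). In every pair 6 genes lay at or under 18.1% and the other 4 at or above 27.6%, with Gap43 reaching 102.2% in 1 pair.

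The second comparison, Wnt1-Ribotag vs. erbB3 wild-type, asked which transcripts were higher in RNA pulled down with the tag than in whole muscle. The groups also differ in RNA preparation, which cannot be told apart from cell source here. No pull-down without the tag was included. The skeletal muscle sum was 2533 and 2324 RPKM in Wnt1-Ribotag 1 and 2, beside 2588 and 2194 in wild-type 5 and 6. All 10 genes had higher RPKM in both Wnt1-Ribotag libraries than in both wild-type libraries, against 23.3% of all 14418 genes tested, and 8 of them, all but Cdh19 and L1cam, were at least 2-fold higher in all 4 pairs, against 1.51%. Of the 10, 0 passed an adjusted p under 0.05 in limma, against 0.00694% of all genes, which is 1 gene, and at an unadjusted p under 0.05 the same fit had 9 of the 10 genes higher, against 8.19% of all genes. The median log2 difference of the 10 genes was 2.75, beside -0.05 over all genes tested. Neuron markers had a median log2 difference of 2.30 over the 10 tested (1.27 to 3.79), 6 of them were higher at an unadjusted p under 0.05, and 2 of the 11 in the files were at least 2-fold higher in all 4 pairs. The median over 20 genes of the Schwann lineage list was 1.62, with 13 higher at an unadjusted p under 0.05. The part of neuronal RNA in the values of the 10 genes was not tested. With all 6 libraries in 1 fit, which shares the spread over the groups, 6 of the 10 passed, against 0.957% of all genes in either direction, and Fabp7 had an adjusted p of 0.0323. Leaving out a library also changed the count, to 3 without wild-type 5 (against 0.18% of all genes) and 7 without wild-type 6 (against 0.464%). Without Wnt1-Ribotag 1 it was 10, and without Wnt1-Ribotag 2 it was 8, but these fits called 31% and 41.8% of all genes. This comparison uses the same wild-type libraries as the first, so the 2 are not independent.

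Fabp7 was at 35.2 and 134.4 RPKM in Wnt1-Ribotag 1 and 2, the largest ratio of means to wild-type in the list, 24.5-fold (8.96 to 44.8 over the pairs). The log2 difference was 4.14 ± 0.63 (SE, n = 2 per group, adjusted p = 0.148 in limma). Gfra3, at 7.98 and 36.1 RPKM, followed at 17.9-fold. The 2 Wnt1-Ribotag libraries differed 3.82-fold in Fabp7 and 4.53-fold in Gfra3, so both ratios have a wide error.

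Gjc3 had the most even ratio to wild-type over the pairs. Its RPKM was 13.9 and 16.8, 11.5-fold the wild-type mean (9.93 to 13.2 over the pairs). The log2 difference was 3.10 ± 0.20 (SE, n = 2 per group, adjusted p = 0.0631 in limma), the lowest adjusted p of the list in this comparison. S100b was at 10.3 and 20.0 RPKM, 11.9-fold the wild-type mean, with a log2 difference of 3.07 ± 0.34 (adjusted p = 0.134). Gjc3 and S100b differed widely in the share left in mutant muscle and had similar ratios here, with overlapping 95% intervals of 2.59 to 3.62 and 2.20 to 3.95.

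Gpr17 was at 8.39 and 14.5 RPKM, 6.61-fold the wild-type mean, and Ednrb at 36.4 and 73.5 RPKM, 5.89-fold. Gap43 was at 56.1 and 238.7 RPKM, 9.46-fold, but from 2.36-fold to 32.2-fold over the pairs. Cadm4 was at 33.2 and 64.7 RPKM, 4.34-fold. Their log2 differences lay between 1.99 (Cadm4) and 3.07 (Gap43), with adjusted p-values of 0.134 to 0.189 in limma.

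The lowest ratios were those of L1cam, at 3.82 and 8.67 RPKM (4.13-fold, 1.56 to 15.1 over the pairs), and Cdh19, at 1.09 and 3.62 RPKM (3.45-fold, 1.34 to 6.52). Both genes were higher in each Wnt1-Ribotag library than in each wild-type library, and for both the nearest pair was less than 2-fold apart. The log2 difference of Cdh19 was 1.12 ± 0.52 (SE, n = 2 per group, adjusted p = 0.312 in limma), and its 95% interval, -0.20 to 2.44, held 0.

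The third comparison set the Wnt1-Ribotag libraries against the erbB3 mutant. Genotype and RNA preparation differ together in it and cannot be told apart. All but Cdh19, 9 of the 10 genes, were higher at an adjusted p under 0.05 in limma, against 1.02% of 14325 genes. All 10 were at least 2-fold higher in all 4 pairs, against 3.34%, and their groups did not overlap, against 29.7%. The median log2 difference was 3.81, beside 0.04 over all genes tested. Mutant means of Fabp7, Gjc3, Gpr17, Cdh19, L1cam and Gfra3 were under 0.5 RPKM, so these 6 genes, 5 of them called, passed the filter through their Wnt1-Ribotag level alone. Without the filter on low values, 1 of the 10, Gjc3, passed. All 8 liver genes tested were also called higher in the Wnt1-Ribotag libraries, each at least 2-fold in all 4 pairs. Of 10 neuron markers tested 3 were called higher and 10 were higher at an unadjusted p under 0.05, against 11.8% of all genes, with a median log2 difference of 3.76. Of the 11 neuron markers in the files, 9 were at least 2-fold higher in all 4 pairs. The part of either list in the values of the 10 genes was not tested.

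Fabp7 had a log2 difference of 6.30 ± 0.57 (SE, n = 2 per group, adjusted p = 0.0114 in limma) and Gjc3 one of 4.95 ± 0.28 (adjusted p = 0.0046). By the ratio of mean RPKM, Gjc3 was 1877-fold, Gpr17 711.3-fold, Gfra3 390.9-fold, Cdh19 246.6-fold and Fabp7 221.9-fold higher. The ratios of Gjc3, Cdh19 and Gfra3 rest on a few reads in at least 1 mutant library, so their size is uncertain. L1cam was 80.3-fold, S100b 22.7-fold, Gap43 20.9-fold, Ednrb 11.6-fold and Cadm4 7.16-fold higher. Gap43 passed narrowly (log2 difference 3.95 ± 0.61, SE, n = 2 per group, adjusted p = 0.0444 in limma) and missed the threshold with a pseudocount of 1, without the filter, with both other scalings and without the variance trend. Cdh19, with a log2 difference of 2.33 ± 0.53, had an adjusted p of 0.108.

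**Figure D3:**
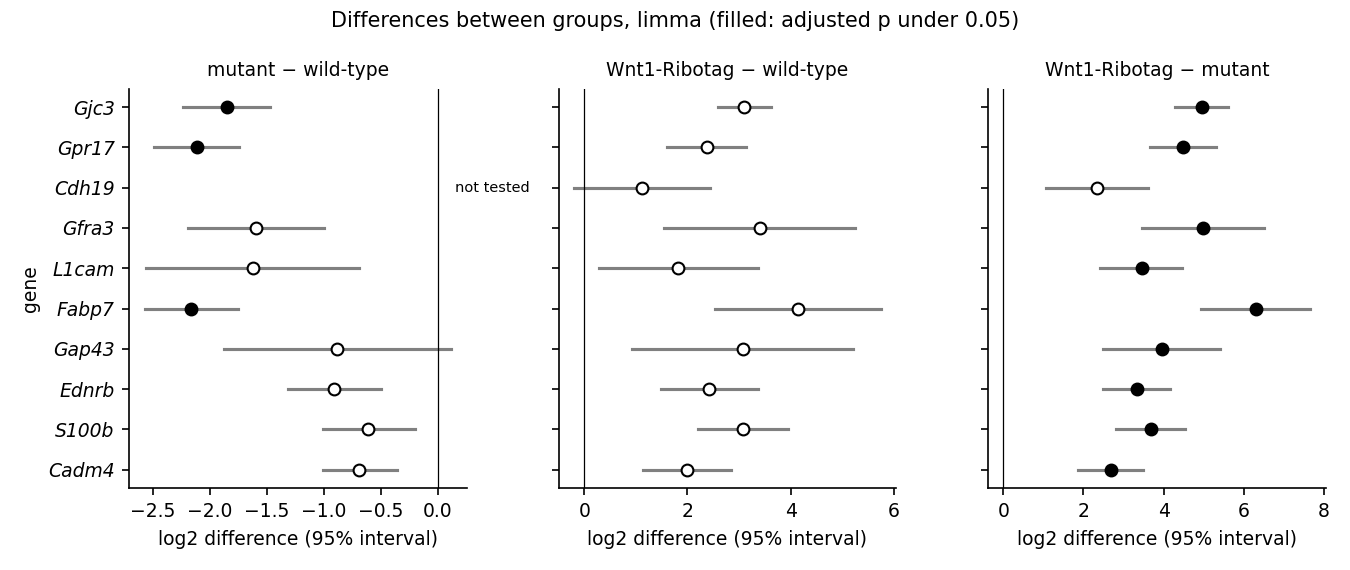
Log2 difference in RPKM + 0.5 of each gene in the 3 comparisons, with 95% intervals from limma (n = 2 libraries per group) and filled points for adjusted p under 0.05. Filled points mark 3 genes in mutant vs. wild-type, 0 in Wnt1-Ribotag vs. wild-type and 9 in Wnt1-Ribotag vs. mutant, and Cdh19 was not tested in the first.

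L1cam, Gap43 and Gfra3, also known from neurons, differed most of the list between the wild-type replicates. Between wild-type 6 and wild-type 5 the ratio of RPKM was 4.27 for L1cam, 3.20 for Gap43 and 2.13 for Gfra3, and between 0.907 (S100b) and 1.46 (Cdh19) for the other 7 genes. Between Wnt1-Ribotag 2 and 1 it was 4.53 for Gfra3, 4.25 for Gap43 and 3.82 for Fabp7, and between 1.21 (Gjc3) and 3.32 (Cdh19) for the others. L1cam, at 2.27, was below Fabp7 and Cdh19 there. The summed RPKM of 11 neuron markers moved in the same libraries. It was 16.3 and 76.2 in wild-type 5 and 6, 9.74 and 13.9 in mutant 1 and 2, and 124.5 and 548.3 in Wnt1-Ribotag 1 and 2.

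The neuron marker with the highest mean, Stmn2, which encodes a microtubule-destabilizing protein of growing axons, was at 2.51 and 15.5 RPKM in wild-type 5 and 6 and at 42.9 and 210.7 in Wnt1-Ribotag 1 and 2. Neuron markers had a median log2 difference of 1.81 between the wild-type replicates and of 2.13 between the Wnt1-Ribotag replicates, over 10 genes with a mean of at least 0.5 RPKM. For 20 genes of the Schwann lineage list the same medians were -0.09 and 0.66, and for the 10 genes followed here 0.32 and 1.04. The neuron sum was also lower in both mutant libraries than in both wild-type libraries.

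**Figure D4:**
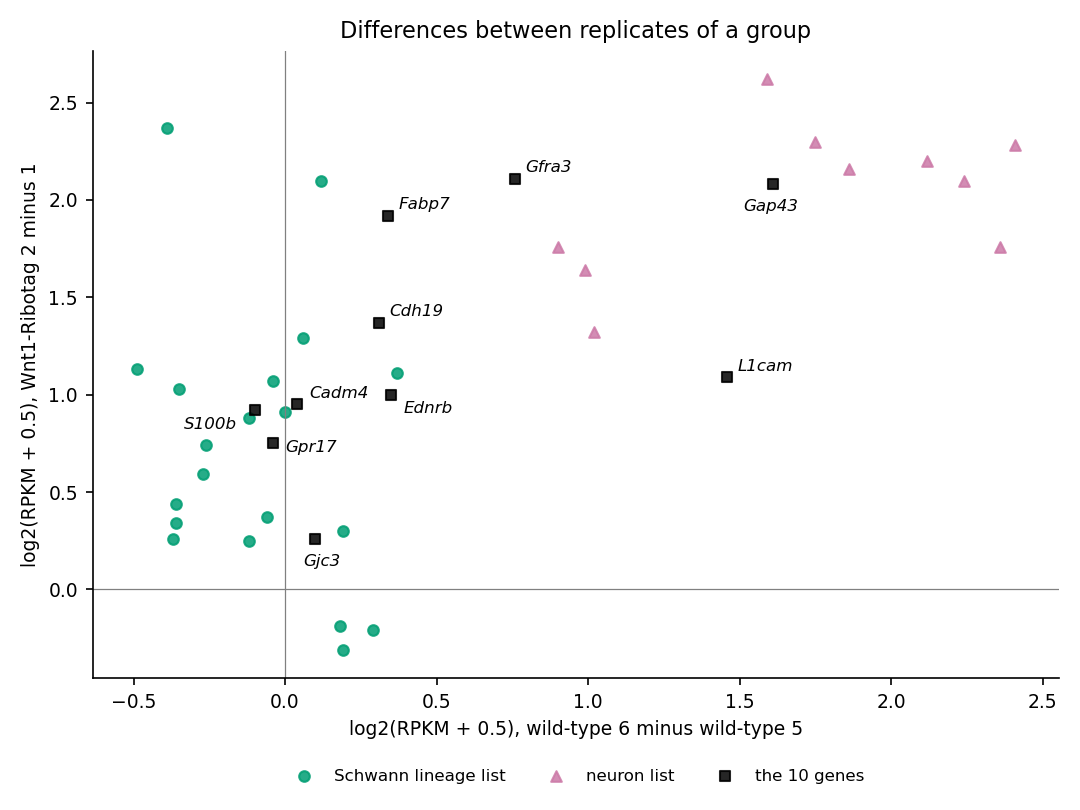
Log2 difference in RPKM + 0.5 between the 2 wild-type replicates (horizontal) and between the 2 Wnt1-Ribotag replicates (vertical), 1 point a gene, for genes with a mean of at least 0.5 RPKM. Gap43 and L1cam lie to the right with the neuron markers, Gfra3 lies at 0.76 on the horizontal axis, and the other 7 genes lie within the range of the Schwann lineage genes on it.

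Relatives and partners of the 10 genes were taken from lists of their families, and 2 of them, Fabp1 and Cadm1, were called, each in 1 comparison. Of the fatty acid binding proteins, 4 of 9 were tested in mutant vs. wild-type and 1 fell, against 0.121% of all genes. It was Fabp1, the liver type, at 2.77% of the wild-type mean (log2 difference -2.60, adjusted p = 0.00821 in limma), which passed the filter through its wild-type level alone. The liver sum was lower in the same libraries. The other 3 had positive differences. At an unadjusted p under 0.05 in limma, Fabp3 (27.1 RPKM in wild-type and 53.1 in mutant muscle, adjusted p = 0.132) and Fabp4 (60.0 and 88.3 RPKM, adjusted p = 0.176) were higher, against 2.38% of all genes. The most abundant of that family, Fabp5, was at 164.8 RPKM in wild-type and 203.6 in mutant muscle (adjusted p = 0.461), many times the level of Fabp7. Pmp2, the fatty acid binding protein of peripheral myelin, was at 0.0808 RPKM in wild-type, 0.120 in mutant and 0.0260 in Wnt1-Ribotag libraries and was not tested.

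Of 8 connexin genes tested in mutant vs. wild-type, 0 passed in limma (1 lower at an unadjusted p under 0.05, against 9.66% of all genes). Gjc1, the most abundant, was at 22.8 RPKM in wild-type, 18.6 in mutant and 29.3 in Wnt1-Ribotag libraries. Of 6 purine and leukotriene receptors tested, 0 passed (0 at an unadjusted p under 0.05), and P2ry6, the most abundant, lay between 1.99 and 2.90 RPKM in all libraries.

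Of 5 endothelin ligand, receptor and converting enzyme genes tested in mutant vs. wild-type, 0 passed in limma (2 lower at an unadjusted p under 0.05, against 9.66% of all genes). The other receptor gene, Ednra, was at 23.4 RPKM in wild-type, 18.5 in mutant and 15.4 in Wnt1-Ribotag libraries (adjusted p = 0.254 for the last against wild-type). The ligand gene Edn3, whose product acts on Ednrb in crest cells, was at 5.53 RPKM in wild-type and 4.84 in mutant muscle (adjusted p = 0.623 in limma).

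Of 6 genes of the GDNF ligand and receptor family tested, 0 passed in any of the 3 comparisons in limma. At an unadjusted p under 0.05, 1 was lower in mutant vs. wild-type, against 9.66% of all genes. By the same measure 2 were higher in Wnt1-Ribotag vs. wild-type (against 8.19%) and 3 in Wnt1-Ribotag vs. mutant (against 11.8%). Ret, the kinase that signals for Gfra3, was at 0.136 and 1.93 RPKM in wild-type 5 and 6, 0.0434 and 0.106 in mutant 1 and 2, and 1.29 and 5.55 in Wnt1-Ribotag 1 and 2 (log2 difference -1.12, adjusted p = 0.424, in mutant vs. wild-type). Wild-type 5 was close to mutant 2, and the wild-type libraries differed 14.2-fold. Gfra1, the GDNF co-receptor and the most abundant of the family, was at 5.34, 4.10 and 12.2 RPKM in the same order of groups (adjusted p = 0.437). Artn, the gene of the Gfra3 ligand artemin, was at 0.350, 0.0909 and 0.507 RPKM and was not tested.

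Of the adhesion families, 0 genes passed in mutant vs. wild-type in limma. At an unadjusted p under 0.05, 5 of 11 classical cadherins tested were lower in the mutant, with a median log2 difference of -0.43 over the 11, as were 1 of 2 L1 family genes and 1 of 2 synaptic cell adhesion molecules, against 9.66% of all genes. In Wnt1-Ribotag vs. mutant Cadm1 was called. It was at 5.15 and 5.27 RPKM in wild-type, 4.21 and 4.0 in mutant and 17.2 and 24.6 in Wnt1-Ribotag libraries (log2 difference 2.19 ± 0.26 from the mutant, SE, n = 2 per group, adjusted p = 0.0198 in limma). Cdh11, a cadherin of mesenchyme and the most abundant classical cadherin, lay between 49.5 and 70.2 RPKM in whole muscle and at 29.8 and 29.9 in Wnt1-Ribotag libraries. Nfasc, the L1 family gene with the highest mean, was at 0.656 and 1.12 RPKM in wild-type and 0.252 and 0.271 in mutant muscle (log2 difference -0.84, adjusted p = 0.198).

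Of 9 S100 genes and 3 growth cone phosphoprotein genes tested in mutant vs. wild-type, 0 passed in limma, nor did any at an unadjusted p under 0.05. S100a11, the most abundant of its family, was at 349.4 and 346 RPKM in wild-type, 308.1 and 371.8 in mutant and 197 and 249.2 in Wnt1-Ribotag libraries. Marcksl1, a membrane-bound actin regulator, lay between 172.7 and 248.8 RPKM in all 6 libraries.

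Across the 22 genes of the Schwann lineage list, 17 were tested in mutant vs. wild-type and 3 fell, against 0.121% of all genes, Sox10 and Pou3f1 among them. At an unadjusted p under 0.05, 9 were lower and 1 was higher, against 9.66% and 2.38% of all genes. Pou3f1, a transcription factor of the promyelinating stage, averaged 1.77 RPKM in wild-type and 0.141 in mutant muscle (log2 difference -1.82, adjusted p = 0.00821 in limma), and Sox10 fell by 2.55 on the log2 scale (adjusted p = 0.0064). Foxd3, a transcription factor of the neural crest, was at 2.18 and 1.59 RPKM in wild-type 5 and 6, 1.97 and 0.670 in mutant 1 and 2 (adjusted p = 0.519), and 9.02 and 12.4 in Wnt1-Ribotag 1 and 2. Mutant 1 lay between the wild-type libraries and mutant 2 below both.

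The 5 genes outside the list whose pattern over the 6 libraries was nearest to the median pattern of the 10 genes were Fxyd3, Hoxb9, Egfl8, Ttyh1 and Lgi4. Likeness was the Euclidean distance between log2(RPKM + 0.5) profiles, each centred on its own mean, and these 5 lay at 0.42 to 0.64. Of the 10 genes themselves, which make up the median, Ednrb lay at 0.47 and S100b at 0.71, and Fabp7 at 2.60 was the farthest. Fxyd3, a regulator of the sodium pump, was at 0.684 and 0.839 RPKM in wild-type, 0.136 and 0.218 in mutant and 5.63 and 9.82 in Wnt1-Ribotag libraries. Lgi4, a secreted protein needed for peripheral myelination, was at 0.724 and 0.762, 0.115 and 0.137, and 4.35 and 7.38 RPKM in the same order.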

How the data were processed

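RNA-Seq was performed on mRNA of diaphragm muscle that had been selected on oligo-dT beads, fragmented and reverse transcribed from random hexamers, with 2 libraries for each genotype, grouped by their labels. The authors deposited RPKM per gene and library, with a flag, an unnormalized other value of 1 for genes at a floor and 0 for the rest per the deposited files. STAR and mm9 are named in the submitters' processing notes; the annotation, counting program and strand setting are not given in the sources used here. Of 23076 entries, 3 had no value, and 21583 of the other 23073 identifiers matched a symbol. A gene at the floor holds the value of 1 read (gene length plus 2 bases), which gave each library's depth from microRNA genes (80.4% to 82.0% of them within 1e-4 of it). Reads per gene are upper estimates from GENCODE M21 exon lengths, since counts were not recovered.

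Groups were compared with limma 3.58.1 in R 4.3.3 (lmFit, eBayes with a trend) on log2(RPKM + 0.5), for genes with a mean of at least 0.5 RPKM in the 4 libraries compared, with Benjamini-Hochberg adjustment over all genes tested. The code was tested on simulated data. Named were all 10 genes; in each family list, called genes and the gene with the highest mean; Sox10, Erbb3 and Foxd3 of the Schwann lineage list (some further genes are not reported here); the highest gene of other marker lists; and the 5 genes of most like pattern. A few further relatives and Pou3f1, Alb, Lims2, Arhgap4, Tnnt3, Myod1 and Myog were named after their values were seen. The 10 genes and all lists were chosen with earlier results of these data known. Gene positions (GENCODE M21) and promoters (RefSeq, GRCm38.p6) are of GRCm38, not of mm9. The labels call the replicates biological. Alternatives were pseudocounts of 0.1 and 1, other filters and scalings, no variance trend, all 6 libraries in 1 fit, a replicate block and leaving out each library. Figures were drawn with matplotlib 3.10.9 in Python 3.11.15.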

Additional observations from a re-analysis of the deposited data

How the results depend on the processing

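Of 348 alternative values of single genes, 0 changed direction, 285 stayed on the same side of the threshold, 40 passed it newly and 23 no longer passed. In mutant vs. wild-type 3 genes were called, against 0.171% of all genes in either direction. Without a filter on low values 0 were called, as with all 6 libraries in 1 fit (against 0% of all genes in both). With a mean of at least 1 RPKM, at which only 4 genes were tested, 1 was called (against 0.271%). Leaving out a library also changed the count, in fits where 1 library stands alone in its group. Genes 2-fold apart in all pairs were 3 in place of 5 with a pseudocount of 1 and with quantile normalization, and 5 to 7 without a library, an alternative chosen after seeing the data. In Wnt1-Ribotag vs. wild-type, 0 genes were called, but 6 with all 6 libraries in 1 fit and 3 to 10 without a library, where the lone library is assumed to vary like the other group. Genes 2-fold apart were then 8 to 10. In Wnt1-Ribotag vs. mutant, 9 genes were called (against 1.19% of all genes in either direction) and 1 without a filter (against 0.485%). All 10 stayed 2-fold apart in all pairs without a library. The causes were not tested. Wnt1-Ribotag and mutant libraries share the replicate numbers 1 and 2 but came from different litters, and their same-numbered deviations had r = 0.168 across 14325 genes, which are not independent. With the number as a replicate block, 10 genes were called in place of 9, and 842 of all genes in place of 171. Some values of Gjc3, Cdh19 and Gfra3 in mutant muscle rest on a few reads.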

Other observations

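Among the lists of other cell types, the summed RPKM of 7 melanocyte genes was 1.92 to 3.26 in the 4 whole-muscle libraries and 3.94 and 4.71 in Wnt1-Ribotag 1 and 2. The sum of the 10 genes followed in the report was 206.5 and 611.1 in the latter. Sums over different genes do not compare shares of cells, and the part of melanocytes was not tested. Kit, a receptor of melanoblasts and mast cells, had the highest mean of that list and lay between 0.960 and 2.82 RPKM. The sum of 6 macrophage genes was 83.8 to 110.1 in whole muscle and 59.8 and 53.1 in Wnt1-Ribotag libraries, with the complement gene C1qb highest, at 19.1 to 40.3 RPKM. That of 6 endothelial genes was 37.8 to 48.1 in whole muscle and 38.9 and 32.5 in Wnt1-Ribotag libraries, with the vascular cadherin Cdh5 highest. That of 6 connective tissue genes was 1717 to 2347 and 1663 and 1781, with the collagen gene Col3a1 highest. Globin and other erythroid genes, 6 in all, summed to 4897 to 9796 in whole muscle and to 4068 and 3700 in Wnt1-Ribotag libraries. Of these 5 lists, 0 genes passed in mutant vs. wild-type or in Wnt1-Ribotag vs. wild-type in limma. At an unadjusted p under 0.05, 2 erythroid genes were lower and 1 endothelial gene differed in each direction in the former, and 5 macrophage and 2 connective tissue genes were lower in the latter, against 9.66% and 11.3% of all genes lower in the 2 comparisons. In the third comparison, Wnt1-Ribotag vs. mutant, the median log2 difference of the 6 erythroid genes was -0.22. At an unadjusted p under 0.05, 3 erythroid, 2 macrophage, 2 connective tissue and 1 endothelial gene were lower there, against 7.46% of all genes, and 2 erythroid genes were higher.

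Of the liver genes, 8 were tested in mutant vs. wild-type and 2, Alb and Afp, were called lower, against 0.121% of all genes. All 8 were at least 2-fold lower in all 4 pairs, against 0.399%. Afp, the fetal serum protein, was at 200.2 and 74.1 RPKM in wild-type 5 and 6, 6.34 and 3.24 in mutant 1 and 2, and 98.5 and 82.5 in Wnt1-Ribotag 1 and 2. Of the neuron markers, 8 were tested in the same comparison and 0 were called, with a median log2 difference of -1.46 and 6 lower at an unadjusted p under 0.05, against 9.66% of all genes. In Wnt1-Ribotag vs. mutant 8 of 8 liver genes, 3 of 10 neuron markers and 9 of 20 Schwann lineage genes were called higher, against 1.02% of all genes.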
